A study of Mus musculus with 15 samples.

Results

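The livers compared here lacked JNK2 throughout the body and NEMO in hepatocytes, and were set against livers with both genes. The comparison was defined by the array labels: 3 arrays labelled as NEMO/Jnk2 double knockout (DKO) and 3 labelled as NEMO floxed/floxed, 6 of the series' 15 arrays, with all genes and with the spread estimated on those 6 arrays. RNA came from whole livers of male mice on the C57BL/6 background, 8 weeks old and fed standard chow, and each array held the RNA of 1 mouse. The floxed controls, written WT below, carried floxed NEMO alleles and no Cre. The DKO mice carried floxed NEMO alleles deleted by Cre under the albumin promoter, which is active in hepatocytes, together with Jnk2-/-, a deletion present in every cell from conception. The Jnk2 KO group, used in a second comparison, was labelled Jnk2-/- with hepatocyte NEMO intact. No group used here lacked hepatocyte NEMO alone, so the difference between DKO and WT joins the loss of JNK2 and of NEMO. Liver cells in which Cre was never active keep NEMO in the DKO mice, and a whole-liver sample mixes the RNA of all liver cells.

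NEMO, the product of Ikbkg, is the regulatory subunit of the IKK complex, which frees NF-κB to enter the nucleus after signals such as TNF. Without it in hepatocytes, TNF receptor signalling is tilted towards cell death, and the liver is known to develop injury, compensatory proliferation, inflammation, fibrosis and tumours. JNK1 and JNK2, from Mapk8 and Mapk9, are stress-activated kinases that phosphorylate c-Jun and act downstream of the same receptors.

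Values are RMA-normalised log2 levels from a whole-transcript array, on which 1 unit is a doubling. The median level of the 6 arrays lay between 4.26 and 4.38, and correlations between pairs of arrays ran from 0.981 to 0.991, both over all probe sets. The array file gives no detection calls, and the number of arrays limits the precision. A difference is DKO minus WT, its standard error (SE) comes from limma, and a gene was called at a Benjamini-Hochberg adjusted p under 0.05 over 19938 genes. The p-values measure the spread between mice of a group. None of the 5 hepatocyte markers was called: Alb (albumin) lay at 13.10, 13.12 and 13.07 in the DKO and at 13.04, 13.16 and 13.09 in WT. Xist stayed between 2.40 and 2.78 on the 6 arrays, while the Y-linked Eif2s3y lay between 7.75 and 8.11, as the labelled sex requires.

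The targeted genes were read first. Mapk9 stood at 2.84, 2.39 and 2.76 in the DKO against 7.41, 7.65 and 7.42 in WT, a difference of -4.83 (SE 0.13, limma adjusted p = 2.55e-06). The Jnk2 KO arrays read 3.28, 2.88 and 2.60. Every array from a Jnk2-deleted mouse was thus low and every WT array high, with no overlap. Ikbkg was 6.31, 6.36 and 6.48 in the DKO and 7.20, 7.15 and 7.41 in WT, 1.82-fold lower (difference -0.87, SE 0.10, limma adjusted p = 0.00162). Mapk8, the paralogue left intact, was 6.90, 6.78 and 6.58 against 6.98, 7.02 and 7.03 and was not called (difference -0.26, SE 0.10, limma adjusted p = 0.172).

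The array labelled Jnk2 KO replicate 3 went against its NEMO label. Its Ikbkg level was 6.24, below the lowest DKO array, where Jnk2 KO replicates 1 and 2 read 7.23 and 7.03. Ly6d on that array was 9.70, against 5.35 and 4.89 on the other Jnk2 KO arrays, and Mmp12 was 8.20 against 3.71 and 3.69. Results that use the Jnk2 KO group are therefore given as labelled and without that array. It takes no part in the DKO against WT comparison.

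Between DKO and WT, 1919 genes (9.62% of those tested) were called, 1071 (5.37%) higher and 848 (4.25%) lower in the DKO. All 1919 had DKO and WT arrays that did not overlap, as did 27.8% of all genes. The rises were larger than the falls: the median difference of the called genes was 0.75 for those that rose and -0.56 for those that fell, while the median over all genes was -0.041. In whole liver, a change in the number of cells of a type and a change in RNA per cell cannot be told apart. At 2-fold or more, 344 rose and 84 fell, and at 4-fold or more, 52 rose and 14 fell. Leaving out 1 array lowered the count, to 989 without DKO replicate 1, 1145 without WT replicate 1, 1111 without WT replicate 2 and 1265 without WT replicate 3. When the spread was taken from all 15 arrays, 525 genes were called, 33.1% of them higher, and 510 of these were among the 1919. That fit includes arrays that go against their labels. A fit to 11 arrays, chosen after seeing the data, called 1940. It left out 4 arrays. Those labelled Jnk1 KO replicate 1 and Jnk2 KO replicate 3 had Ly6d at 10.12 and 9.70 and Mmp12 at 8.66 and 8.20, while the other Jnk1 KO and Jnk2 KO arrays had Ly6d from 4.76 to 5.35. NEMO/Jnk1 DKO replicates 1 and 2 had Xist at 9.17 and 9.08, and the array labelled Jnk1 KO replicate 1 had it at 8.68. Of the 257 called genes picked by rule for description here, 170 kept the call in every fit without 1 array, and 83 kept it in the fit to all 15.

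**Figure D1:**
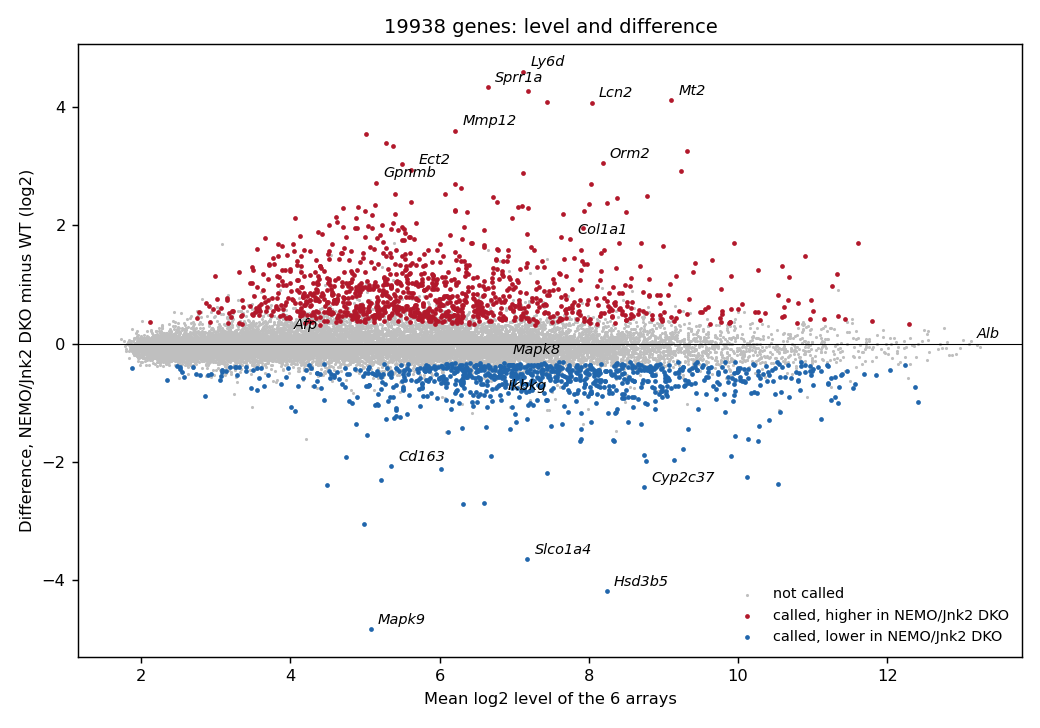
Difference between DKO and WT (log2, vertical axis) against the mean log2 level of the 6 arrays (horizontal axis), 1 point per gene; red and blue points are the 1071 genes called higher and the 848 called lower. The points far above 0 outnumber those far below it, and Mapk9 is the lowest at -4.83.

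The largest rise was that of Ly6d. Its transcript, which encodes a surface protein of the Ly6 family, read 7.88, 9.91 and 10.48 in the DKO against 4.67, 4.73 and 5.06 in WT, 24.3-fold higher (difference 4.60, SE 0.55, limma adjusted p = 0.0019). The DKO arrays spread widely for this gene, with replicate 1 lowest, yet none came near a WT array. Sprr1a, a cornified envelope protein also induced by injury, was 8.24, 8.86 and 9.37 against 4.61, 4.89 and 3.94 (difference 4.34, SE 0.31, limma adjusted p = 0.000274). Tmc5, a transmembrane channel-like protein, was at 6.73, 6.85 and 6.79 against 2.92, 3.54 and 3.30 (difference 3.54, SE 0.15). D17H6S56E-5 rose by 4.28 (SE 0.19). Cyp2c39, a cytochrome P450 of arachidonic acid and retinoic acid metabolism, rose by 4.09 (SE 0.29), from 4.67, 5.78 and 5.76 to 9.24, 9.44 and 9.79, and read 9.01, 4.32 and 4.93 in the Jnk2 KO. Of these genes, Ly6d and D17H6S56E-5 lost the call in the fit to all 15 arrays (adjusted p = 0.0801 and 0.0672).

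Several of these genes were also above WT on the Jnk2 KO arrays. Mt2, a metallothionein that binds zinc and copper, was 11.22, 10.16 and 12.10 in the DKO and 6.68, 8.10 and 6.34 in WT (difference 4.12, SE 0.54, limma adjusted p = 0.00264), and 12.12, 12.44 and 10.18 in the Jnk2 KO. Lcn2, an iron-scavenging acute phase protein, was 9.92, 8.75 and 11.57 against 6.26, 6.26 and 5.49 (difference 4.08, SE 0.59), and 9.62, 9.71 and 9.36 in the Jnk2 KO. All Jnk2 KO arrays were thus above all WT arrays for both genes. Gdpd3, a lysophospholipase D, was 7.17, 6.89 and 6.88 against 3.33, 3.72 and 3.70, and 6.39, 7.06 and 7.96 in the Jnk2 KO. Abcb1b, a multidrug efflux pump, rose by 3.34 (SE 0.29) and Saa2, a serum amyloid, by 3.26 (SE 0.40). Without Jnk2 KO replicate 3, none of these 5 genes was called between DKO and Jnk2 KO: the differences were -1.12 for Mt2, 0.42 for Lcn2, 0.26 for Gdpd3, 0.58 for Abcb1b and -0.03 for Saa2, with SEs between 0.20 and 0.62. The same held for Mt1 (difference from WT 2.92, SE 0.55, limma adjusted p = 0.0135), whose call against WT was lost without DKO replicate 1, WT replicate 1 or WT replicate 3 (adjusted p = 0.0595, 0.0572 and 0.0573). It also held for Cyp2b9, a phenobarbital-type P450 with higher levels in female liver (difference from WT 3.04, SE 0.62, limma adjusted p = 0.0175), whose call was lost without DKO replicate 2, DKO replicate 3, WT replicate 1 or WT replicate 3 (adjusted p = 0.0537, 0.0584, 0.0749 and 0.0707). In the fit to all 15 arrays, Mt1 and Cyp2b9 were not called either (adjusted p = 0.0645 and 0.298).

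**Figure D2:**
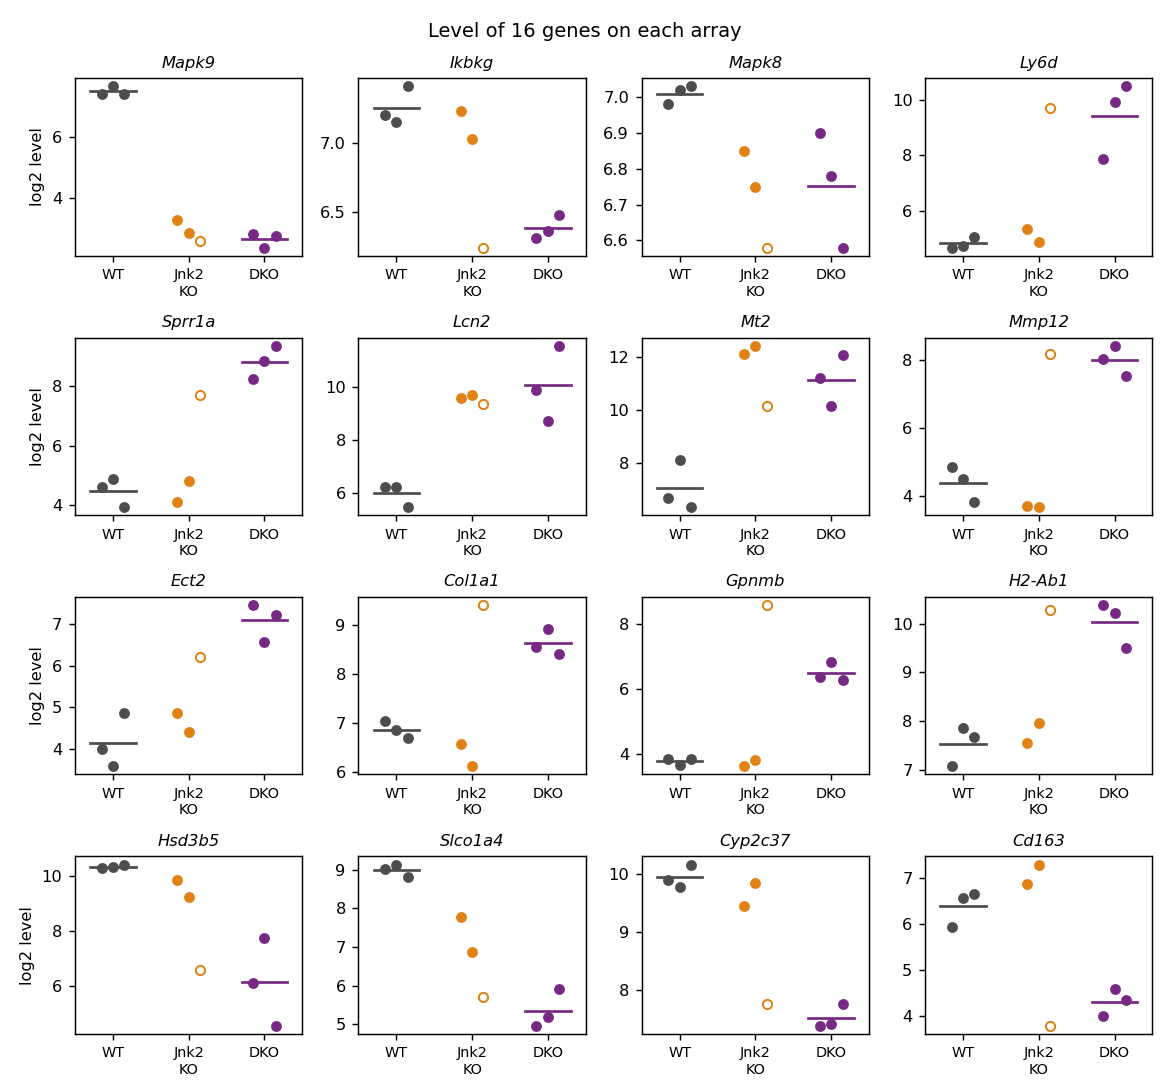
Level (log2, vertical axis, scaled per panel and not starting at 0) of 16 genes on each WT, Jnk2 KO and DKO array; each point is 1 mouse, horizontal bars are means of 3 WT or 3 DKO arrays, and the open circle is the array labelled Jnk2 KO replicate 3. Mt2 and Lcn2 are high on all Jnk2 KO and DKO arrays, whereas Mmp12 and Gpnmb are high on the DKO arrays and the open circle alone.

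After Mapk9 the largest fall was that of a steroid enzyme. Hsd3b5, a male-specific hepatic steroid dehydrogenase, read 6.13, 7.73 and 4.57 against 10.29, 10.31 and 10.41, 18.3-fold lower (difference -4.19, SE 0.63, limma adjusted p = 0.00506). Slco1a4, an organic anion and bile acid uptake transporter, was 4.96, 5.18 and 5.91 against 9.03, 9.14 and 8.82 (difference -3.65, SE 0.22). Jnk2 KO replicates 1 and 2 stood between the groups at 7.77 and 6.86, while replicate 3, at 5.71, lay within the DKO values. Serpina12 (vaspin) fell by 2.70 (SE 0.37). Mug2, a plasma protease inhibitor, fell by 2.37 (SE 0.13), and Upp2, a uridine phosphorylase, fell by 1.98 (SE 0.23). Sugct, Clec2h, Sucnr1 and Pcp4l1 were lower as well, with differences of -2.72, -2.39, -2.12 and -1.92. Clec2h was as low in the Jnk2 KO, at 3.16, 2.99 and 3.32, as in the DKO, at 3.38, 3.26 and 3.27. Elovl3, a very long chain fatty acid elongase, fell by 2.25 (SE 0.41, limma adjusted p = 0.0111), a call lost without WT replicate 1 (adjusted p = 0.0545). Adh6-ps1 differed by -3.05 (SE 0.74, limma adjusted p = 0.0356), with WT arrays as far apart as 4.46, 7.08 and 8.00. That call was lost without DKO replicate 1, 2 or 3 or WT replicate 2 or 3 (adjusted p = 0.109, 0.0927, 0.0985, 0.145 and 0.0879). In the fit to all 15 arrays, Hsd3b5 (adjusted p = 0.231), Serpina12 (0.119), Upp2 (0.0724), Elovl3 (0.447) and Adh6-ps1 (0.0504) were not called.

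Genes of mitosis rose together. Of 47 measured members, 41 rose and none fell, and their median difference was 1.38, against -0.04 over all genes. Ect2, the exchange factor that starts the cytokinetic furrow, was 7.45, 6.58 and 7.22 in the DKO and 4.0, 3.59 and 4.86 in WT (difference 2.94, SE 0.32, limma adjusted p = 0.00133). Kif20a, a kinesin of the central spindle, rose by 2.54 (SE 0.23) and Tpx2, which activates Aurora A on the spindle, by 2.35 (SE 0.19). Mki67, the proliferation antigen Ki-67, was 6.41, 5.57 and 6.73 against 3.86, 4.46 and 4.37. Top2a, the topoisomerase that untangles replicated chromosomes, was 6.13, 5.32 and 6.65 against 4.07, 3.72 and 4.35. DKO replicate 2 was the lowest DKO array for all 3 of Ect2, Mki67 and Top2a, and still above every WT array. The mean level of the 47 genes was 5.51, 4.84 and 5.47 in the DKO, 3.92, 3.76 and 3.98 in WT, and 4.15, 3.72 and 4.75 in the Jnk2 KO, whose highest value belongs to replicate 3. With 1 array left out, 30 to 43 members were called, and the fit to all 15 arrays called 1, while the fit to 11 arrays called 42.

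The promoters of the called mitosis genes were read for letters known from cell cycle genes. The window was the 300 bases from 250 before to 50 after each start listed by RefSeq (GRCm38.p6), on both strands. TTTGAA, the cell cycle homology region element, was in the window of 28 of the 35 called mitosis genes with a listed promoter (80%), against 17.3% of the 15614 measured genes that have one. CCAAT was in 26 of the 35 (74.3%), against 41.7%. Where a gene has several listed starts, the first in the table was used for the stretches shown; Ect2 has 2. The stretches are the 150 bases before that start for the 3 called genes with the largest rises among those with a listed promoter and TTTGAA in these 150 bases. In order of rise 6 genes were passed over: Kif20a, Tpx2 and Ccna2, which were not matched to the promoter table, and Mad2l1, Plk1 and Nuf2, which lack the letters there, though Plk1 has them elsewhere in its window. Each is given 5′ to 3′ on the gene's strand, with TTTGAA and CCAAT, or their reverse complements TTCAAA and ATTGG, in capitals.
Ect2, minus strand of chr3:27153879-27154028: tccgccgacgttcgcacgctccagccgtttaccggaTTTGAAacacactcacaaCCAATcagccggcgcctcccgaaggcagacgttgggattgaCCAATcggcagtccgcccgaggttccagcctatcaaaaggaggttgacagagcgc
Mki67, minus strand of chr7:135716380-135716529: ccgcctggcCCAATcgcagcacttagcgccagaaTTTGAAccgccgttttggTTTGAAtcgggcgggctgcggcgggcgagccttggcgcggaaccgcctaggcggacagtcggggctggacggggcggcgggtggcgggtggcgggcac
Top2a, minus strand of chr11:99024190-99024339: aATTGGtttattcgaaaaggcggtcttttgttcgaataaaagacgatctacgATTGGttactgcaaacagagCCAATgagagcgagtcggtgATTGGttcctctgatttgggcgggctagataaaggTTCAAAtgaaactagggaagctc
In Ect2 the TTTGAA lies 114 to 109 bases before the start, and in Top2a the element is on the opposite strand, 23 to 18 bases before it. The annotated span of Ect2, Mki67 and Top2a begins upstream of the start used, so all of the Ect2 stretch and part of the other two lie inside the genes as annotated. A match of letters is a description and shows no binding. The genes were listed by function, and these letters are known from that class, so their share is no result of the arrays.

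Genes of DNA replication moved less uniformly. Of 37 measured, 11 rose and 1, Mcm10, fell, with a median difference of 0.52. Rrm1, a subunit of ribonucleotide reductase, rose by 1.23 (SE 0.18). Mcm6, part of the replicative helicase, was 6.35, 5.87 and 7.91 against 4.78, 4.24 and 4.99 (difference 2.04, SE 0.46, limma adjusted p = 0.0268), with DKO replicate 3 well above the others. The call of Mcm6 was lost without DKO replicate 1, WT replicate 1, WT replicate 2 or WT replicate 3 (adjusted p = 0.0663, 0.0831, 0.118 and 0.0619). That of Mcm10 (difference -0.92, SE 0.21, limma adjusted p = 0.03) was lost without DKO replicate 2, WT replicate 1 or WT replicate 3 (adjusted p = 0.053, 0.103 and 0.102). The count of called members dropped from 12 to 2 without WT replicate 1, 5 without WT replicate 2 and 6 without WT replicate 3, and was 1 in the fit to all 15 arrays. Among 17 G1 cyclins and inhibitors 3 rose (17.6%, against 9.62% of all genes), Ccnd1, Rbl1 and Cdkn2c. Ccnd1, cyclin D1, was 9.34, 9.39 and 8.45 against 7.24, 6.38 and 6.82 (difference 2.24, SE 0.28, limma adjusted p = 0.00224), and 8.13, 7.03 and 9.53 in the Jnk2 KO. It was not called in the fit to all 15 arrays (adjusted p = 0.147), nor were the other 2.

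Death and damage genes changed in part. Of 30 cell death genes, 8 rose and 2 fell. Mlkl, the pore-forming executor of necroptosis, was 6.22, 5.87 and 6.17 against 4.35, 4.53 and 4.55 (difference 1.61, SE 0.12, limma adjusted p = 0.000293). Tnfrsf12a, the TWEAK receptor Fn14, rose by 1.42 (SE 0.17) and Tnfrsf10b, the TRAIL receptor, by 1.22 (SE 0.16). Zbp1, a nucleic acid sensor upstream of RIPK3, rose by 1.20 (SE 0.16). Both falls were of pro-apoptotic BH3 genes: Bid fell by 1.04 (SE 0.12) and Bik fell by 1.26 (SE 0.19). Bid was also low in the Jnk2 KO, at 5.02, 4.59 and 5.10, against 5.50, 5.77 and 5.80 in WT. Casp8 (0.35) and Ripk3 (0.41) were not called. Of 23 p53 targets 10 rose and none fell, among them Eda2r (1.45, SE 0.11), Phlda3 (1.10, SE 0.13) and Ccng1 (1.00, SE 0.10). Mdm2, which degrades p53, rose by 0.43 (SE 0.09, limma adjusted p = 0.0213), a call lost without DKO replicate 1, 2 or 3 or WT replicate 1 or 2 (adjusted p = 0.0697, 0.0515, 0.0686, 0.0721 and 0.0605). Btg2, an antiproliferative gene that the lists place under p53 and AP-1 alike, was 7.11, 7.32 and 7.11 against 5.17, 5.96 and 5.11, and as high in the Jnk2 KO at 6.73, 7.18 and 7.31. The p53 count dropped to 5 without DKO replicate 1 and 6 without WT replicate 3. Calls covered 33.3% of the death genes and 43.5% of the p53 targets, against 9.62% of all genes. In the fit to all 15 arrays 4 death genes and 4 p53 targets were called. Mlkl (limma adjusted p = 0.0919), Tnfrsf12a (0.146), Zbp1 (0.101), Phlda3 (0.0672) and Mdm2 (0.232) were not called there.

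Among 31 genes of the JNK and IKK pathway 4 were called (12.9%, against 9.62% of all genes): 2 fell, Mapk9 and Ikbkg, and 2 rose, Tnfrsf1a, the TNF receptor (0.55, SE 0.11, limma adjusted p = 0.0163), and Tnip1, an A20-binding inhibitor of NF-κB (0.47, SE 0.09, limma adjusted p = 0.0126). The call of Tnfrsf1a was lost without DKO replicate 1, WT replicate 1 or WT replicate 3 (adjusted p = 0.055, 0.0625 and 0.0585), and that of Tnip1 without DKO replicate 1 (adjusted p = 0.0515). Tnip1 lies on chromosome 11 within 10 Mb of Mapk9. The list's count was 2 without DKO replicate 1 and 7 without DKO replicate 3. The NF-κB targets Nfkbia (-0.61) and Tnfaip3 (0.15) were not called. Of 21 AP-1 and immediate early genes 4 rose (19%): Btg2, Atf3 (1.31, SE 0.22), Klf6 (1.22, SE 0.15) and Ier5 (0.71, SE 0.13, lost without WT replicate 2 at adjusted p = 0.0526). Jun itself differed by 1.20 and was not called. In the fit to all 15 arrays, 2 genes of the JNK and IKK list and 1 of the AP-1 list were called. A Jnk2 allele made in another strain can carry neighbouring DNA, so calls were counted by position: 14 of the 228 tested genes within 10 Mb of Mapk9 were called (6.14%), and 143 of the 1566 on chromosome 11 (9.13%), against 9.62% of all genes.

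Matrix genes rose. Of 33 collagens and matrix proteins, 25 rose and 1, Col18a1, fell, and the median difference was 0.63. Lum, lumican, a proteoglycan of collagen fibrils, was 8.32, 8.52 and 8.18 against 6.06, 5.75 and 6.32 (difference 2.30, SE 0.15, limma adjusted p = 0.000192). Col1a1, the main chain of fibrillar collagen I, was 8.56, 8.92 and 8.41 against 7.03, 6.86 and 6.68, 3.41-fold higher (difference 1.77, SE 0.15, limma adjusted p = 0.00047). Col6a3 rose by 1.71 (SE 0.11), Nid1 by 1.63 (SE 0.15) and Col3a1 by 1.24 (SE 0.14). The fall of Col18a1 (difference -0.44, SE 0.10, limma adjusted p = 0.0351) lost its call in each of the 6 fits without 1 array (adjusted p from 0.0504 to 0.131). Of 23 stellate cell and myofibroblast markers 7 rose, including both PDGF receptors: Pdgfra was 7.78, 7.56 and 7.38 against 5.97, 6.20 and 5.81, and Pdgfrb rose by 1.43 (SE 0.16). Acta2, the smooth muscle actin of myofibroblasts, was 6.72, 7.15 and 7.30 against 5.82, 5.50 and 7.78 and was not called (limma adjusted p = 0.49), since WT replicate 3 was above every DKO array.

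Of 21 matrix proteases and inhibitors 11 rose and none fell. Mmp12, macrophage elastase, was 8.05, 8.43 and 7.54 against 4.88, 4.51 and 3.83 (difference 3.60, SE 0.29, limma adjusted p = 0.000391), Mmp13 rose by 2.12 (SE 0.34), and Timp1, which inhibits such enzymes, by 1.44 (SE 0.13). That count was 7 without DKO replicate 2, WT replicate 1 or WT replicate 3. The mean level of the 33 matrix genes was 6.81, 6.96 and 6.80 in the DKO, 6.11, 6.12 and 6.05 in WT, and 6.17, 5.94 and 7.37 in the Jnk2 KO. The fit to all 15 arrays called 0 of the matrix genes, 0 of the stellate cell markers and 1 of the proteases, and the fit to 11 arrays called 25, 8 and 11.

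Macrophage transcripts rose: 21 of 28 monocyte and macrophage markers did and none fell, with a median difference of 1.15. The mean level of the 28 was 7.10, 7.10 and 6.74 in the DKO, 5.66, 5.99 and 6.07 in WT, and 6.20, 6.03 and 7.07 in the Jnk2 KO. Ms4a6c rose by 1.92 (SE 0.18), Ctss, a lysosomal cysteine protease of antigen processing, by 1.71 (SE 0.23), Cd68 by 1.63 (SE 0.15) and Ccr2, the receptor that draws monocytes out of the blood, by 1.5 (SE 0.13). Lyz2, macrophage lysozyme, rose by 1.65 (SE 0.30, limma adjusted p = 0.0107), a call lost without DKO replicate 1 (adjusted p = 0.0533). Of 22 genes of scar-associated and phagocytic macrophages 15 rose. Gpnmb, a glycoprotein of lipid-laden phagocytes, was 6.39, 6.85 and 6.28 against 3.86, 3.65 and 3.86 (difference 2.72, SE 0.15, limma adjusted p = 8.84e-05). Cd36, a fatty acid and oxidised lipid receptor that hepatocytes can also express, was 9.54, 9.62 and 9.67 against 7.27, 7.49 and 7.40. Clec7a, the β-glucan receptor Dectin-1, rose by 1.95 (SE 0.17), while Trem2 differed by 0.68 and was not called (limma adjusted p = 0.0609).

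Resident Kupffer cell genes did not follow as one group. Of 14 measured, 5 rose and 1 fell. Marco, a scavenger receptor, was 6.53, 6.99 and 6.13 against 4.99, 4.67 and 4.66 (difference 1.77, SE 0.20). Cd163, the haemoglobin scavenger receptor, was 3.99, 4.59 and 4.35 against 5.95, 6.58 and 6.65, 4.24-fold lower (difference -2.08, SE 0.21, limma adjusted p = 0.00096), and 6.88, 7.30 and 3.79 in the Jnk2 KO. The defining genes Clec4f and Timd4 were not called: Clec4f was 7.99, 8.38 and 7.64 against 7.08, 7.86 and 7.98, and Timd4 was 6.51, 6.77 and 5.83 against 5.65, 6.40 and 6.39. The count of Kupffer genes called was 2 without DKO replicate 1 or 2 and 3 without WT replicate 1. In the fit to all 15 arrays Cd163 (adjusted p = 0.129), Gpnmb (0.169) and Mmp12 (0.128) were not called, and 5, 3 and 2 genes of the macrophage, scar-associated and Kupffer lists were.

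Of 11 measured MHC class II genes 7 rose, with a median difference of 1.35. H2-Ab1, a chain of the class II heterodimer, was 10.38, 10.21 and 9.50 against 7.07, 7.86 and 7.68 (difference 2.50, SE 0.26, limma adjusted p = 0.00111), H2-Aa rose by 2.47 (SE 0.26), and Cd74, the invariant chain, by 2.37 (SE 0.29). DKO replicate 3 was the lowest DKO array for H2-Ab1. Ciita, the class II transactivator, differed by 0.47 and was not called. With 1 array left out, 7 or 8 members were called, and the fit to all 15 arrays called 4. Macrophages and other antigen-presenting cells make these proteins, and the part of the macrophage rise in these values was not tested.

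Markers of lymphocytes and neutrophils were called at 7.69% (T and NK cells), 20% (B and plasma cells) and 11.1% (neutrophils), against 9.62% of all genes. Of 26 T and NK cell genes 2 rose, Cd3g (0.78, SE 0.11) and Nkg7, and the mean level of the list was 3.68, 3.58 and 3.48 in the DKO against 3.42, 3.46 and 3.40 in WT. Of 10 B and plasma cell genes 2 rose, Blnk (1.11, SE 0.19) and Jchain, while Cd79a (0.26) and Ms4a1 (0.09) were not called. On average that list lay at 3.80, 3.75 and 3.75 against 3.47, 3.67 and 3.54. Of 18 neutrophil genes 2 rose, Il1b and Retnlg, and the granule genes Mpo (-0.06), Elane (-0.08) and Ltf (0.02) and the marker Ly6g (0.00) were not called. The neutrophil list's mean level was 3.62, 3.30 and 3.45 against 3.26, 3.27 and 3.10. The 27.8% of genes whose arrays did not overlap is a share of single genes, in either direction, and is no measure for list means. For all 3 list means every DKO array lay above every WT array. These means lie near log2 3.69, the level under which genes were treated as dim. The lowest DKO and highest WT means were 3.48 and 3.46 (T and NK cells), 3.75 and 3.67 (B and plasma cells) and 3.30 and 3.27 (neutrophils). The pairs of called genes were thin: the neutrophil count was 1 without DKO replicate 1, DKO replicate 3, WT replicate 1 or WT replicate 3 and 0 without WT replicate 2. The call of Nkg7 (limma adjusted p = 0.0228) was lost without WT replicate 1, 2 or 3 (adjusted p = 0.0678, 0.0958 and 0.0695). That of Il1b (0.0145) was lost without DKO replicate 1, WT replicate 2 or WT replicate 3 (0.0524, 0.0675 and 0.0569), and that of Retnlg (0.021) without DKO replicate 2 or 3 or WT replicate 1 or 2 (0.0502, 0.0538, 0.0802 and 0.0798). Jchain (0.0286) lost its call without DKO replicate 1 or 3 or WT replicate 1 or 2 (0.0895, 0.0875, 0.097 and 0.0968). The T and NK cell count was 1 without WT replicate 3, and the B cell count was 1 without DKO replicate 1, DKO replicate 3, WT replicate 1 or WT replicate 2. The fit to all 15 arrays called none of these 3 lists' genes.

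Among 28 chemokines 8 rose and none fell. Cxcl14 was 8.10, 7.57 and 6.98 against 4.75, 4.71 and 5.09 (difference 2.70, SE 0.25, limma adjusted p = 0.000633). Ccl6 rose by 1.85 (SE 0.21) and Ccl3 by 1.69 (SE 0.12), whereas Ccl2, the ligand of CCR2, differed by 0.23 and was not called. Of 21 endothelial markers 4 rose, led by the leukocyte adhesion molecule Vcam1, at 8.24, 8.20 and 7.66 against 5.53, 6.29 and 5.90, while the sinusoidal markers Stab2 (-0.07) and Clec4g (0.02) were not called. That count was 2 without DKO replicate 2, WT replicate 1 or WT replicate 3. Of 28 interferon-stimulated genes 12 rose, among them Ifi27l2a (1.81, SE 0.14) and Usp18, the deISGylase that limits interferon signalling (1.51, SE 0.17). Leaving out DKO replicate 1 or 2 took that count to 7 and 5, and leaving out WT replicate 1, 2 or 3 to 6, 7 and 7. The shares called were 28.6% of chemokines, 19% of endothelial markers and 42.9% of interferon-stimulated genes, against 9.62% of all genes. The fit to all 15 arrays called 3 chemokines, 1 endothelial marker and 3 interferon-stimulated genes.

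**Figure D3:**
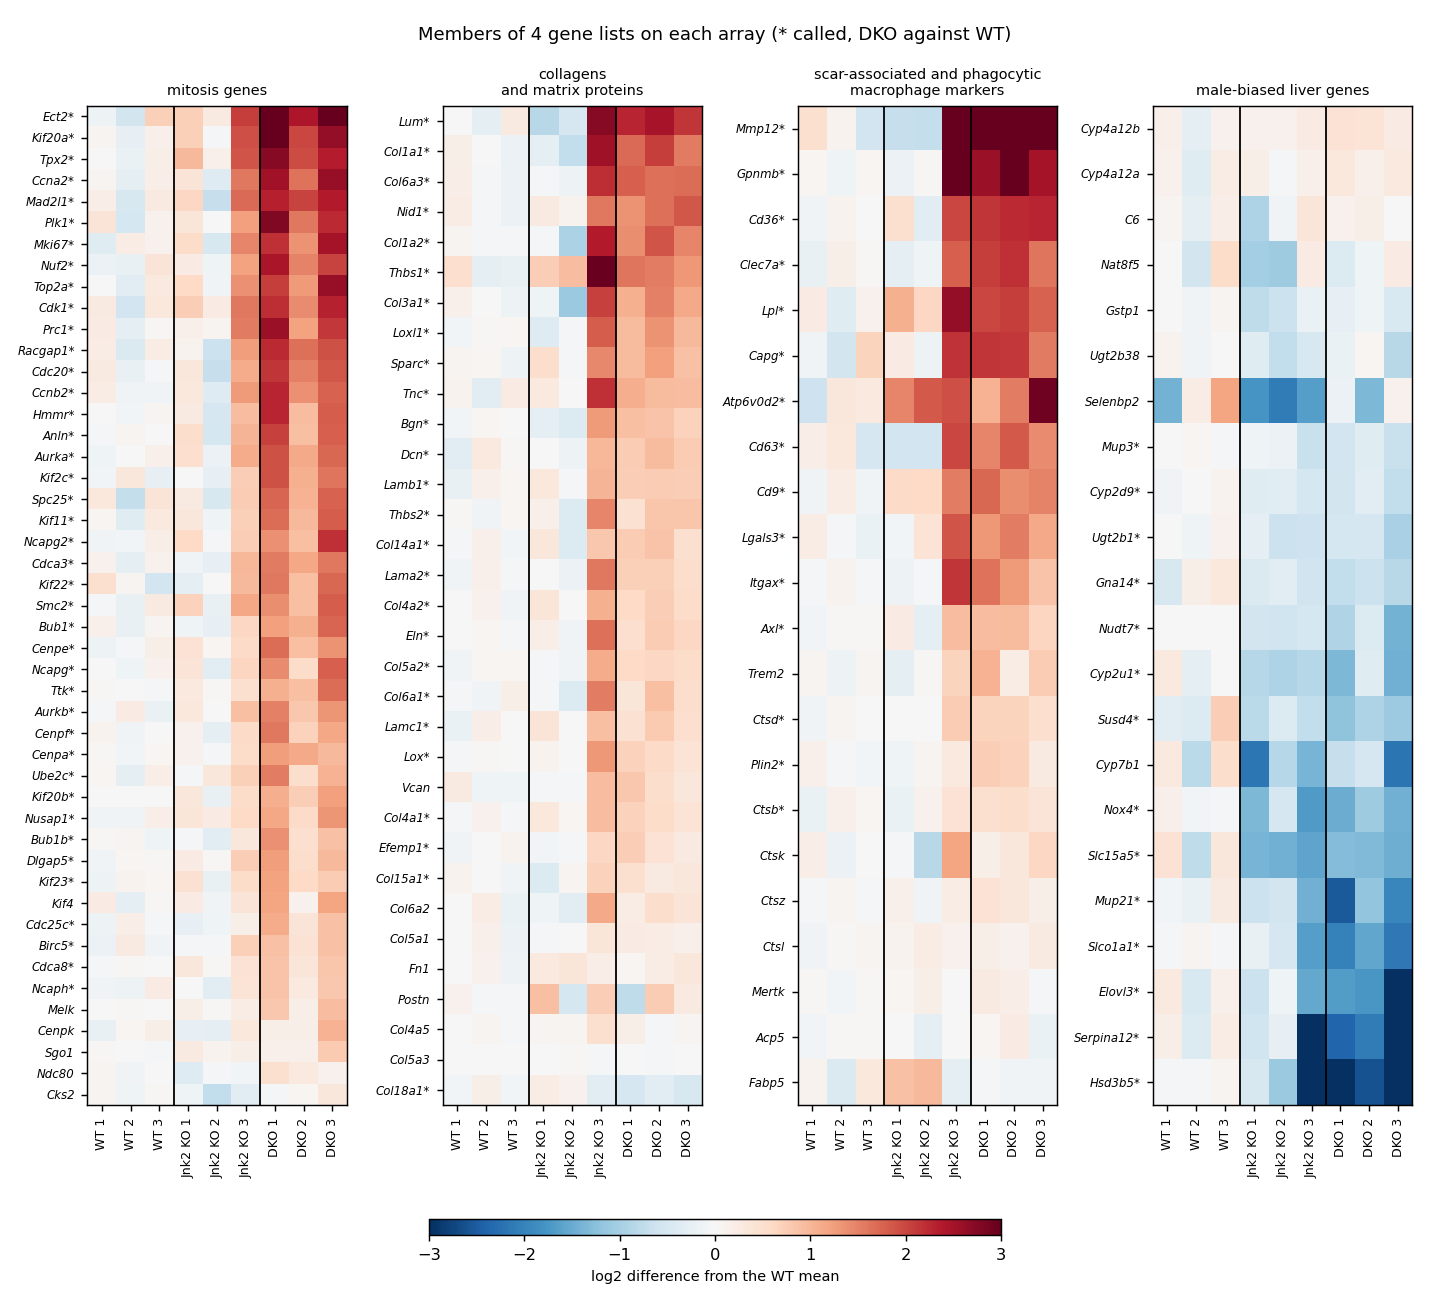
Difference of each array from the WT mean (log2, colour scale from -3 to 3) for the measured members of 4 gene lists; each row is a gene, ordered by its difference between DKO and WT, each column a mouse, and an asterisk marks a call. The DKO columns are red for mitosis, matrix and macrophage genes and blue for most male-biased genes, and the column labelled Jnk2 KO 3 resembles them more than it resembles Jnk2 KO 1 and 2.

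Acute phase genes rose in part and were also high in the Jnk2 KO. Of 28 measured, 8 rose and 1 fell. Orm2, an orosomucoid, was 9.96, 9.04 and 10.13 against 6.51, 6.63 and 6.86 (difference 3.05, SE 0.25, limma adjusted p = 0.00047), and 7.87, 7.62 and 8.56 in the Jnk2 KO. Saa1 rose by 2.70 (SE 0.41) and Steap4, a metalloreductase, by 1.41 (SE 0.10). Steap4 was higher still in the Jnk2 KO, at 10.88, 11.38 and 10.31 against 10.37, 10.22 and 10.47 in the DKO. Saa3, the serum amyloid of macrophages and fat, fell by 0.70 (SE 0.12, limma adjusted p = 0.0103), a call lost without DKO replicate 1 (adjusted p = 0.0504) and in the fit to all 15 arrays (adjusted p = 0.174). The mean level of the list was 9.36, 9.26 and 9.89 in the DKO, 8.73, 8.81 and 8.73 in WT and 9.66, 9.85 and 9.33 in the Jnk2 KO.

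Among 12 metallothionein and zinc transport genes only Mt1 and Mt2 were called (16.7%, against 9.62% of all genes), both up. The neighbouring Mt3 (0.04) and Mt4 (0.00) and the metal-responsive factor Mtf1 (-0.04) were not called. With the threshold at 0.05, that list's count was 1 without DKO replicate 1, WT replicate 1 or WT replicate 3. The core of the metal response element, TGCNCNC, was in the 300-base window of both genes, and in 58.7% of the 15614 measured genes with a listed promoter. The 150 bases before each start are given 5′ to 3′ with the core, or its reverse complement, in capitals.
Mt2, plus strand of chr8:94172468-94172617: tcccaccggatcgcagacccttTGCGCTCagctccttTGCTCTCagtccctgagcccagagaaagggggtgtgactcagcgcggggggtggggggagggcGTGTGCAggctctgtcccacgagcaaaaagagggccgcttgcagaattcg
Mt1, plus strand of chr8:94178939-94179088: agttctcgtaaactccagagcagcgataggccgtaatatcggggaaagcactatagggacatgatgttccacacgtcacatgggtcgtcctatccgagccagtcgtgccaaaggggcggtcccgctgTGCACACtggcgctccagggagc
These letters were present 3 times in the Mt2 stretch and 1 time in that of Mt1. The Mt1 stretch lies inside the annotated span of the gene, which begins upstream of the start listed in the promoter table, while the span of Mt2 begins at its start.

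Of 19 genes of the cornified envelope, annexin and S100 families 7 rose and none fell. Anxa2, a calcium-dependent membrane-binding protein, was 8.57, 8.32 and 8.80 against 5.77, 5.41 and 5.83, 7.44-fold higher (difference 2.89, SE 0.15, limma adjusted p = 6.85e-05). S100a11 rose by 2.33 (SE 0.30) and Anxa5 by 1.71 (SE 0.13), while Sprr1b (0.35), the neighbour of Sprr1a, was not called. Of 23 fetal liver and liver tumour markers 10 rose and 1 fell. Scd2, the desaturase of fetal liver, was 8.26, 8.04 and 7.60 against 4.93, 5.50 and 6.27 (difference 2.40, SE 0.31), and Golm1 (1.54, SE 0.19) and Ly6e (1.48, SE 0.11) rose too. Afp, α-fetoprotein, was 3.91, 4.14 and 4.03 against 3.83, 4.05 and 3.73 and was not called, nor were Gpc3 (0.61) and Igf2 (-0.10). The one fall, Aldoc (-0.40, SE 0.09, limma adjusted p = 0.0276), was lost without DKO replicate 1, 2 or 3 or WT replicate 1 or 3 (adjusted p = 0.0754, 0.0962, 0.0564, 0.0898 and 0.0753). Of 21 cholangiocyte and progenitor markers 5 rose: the simple-epithelial keratins Krt8 (1.32, SE 0.18) and Krt18 (1.25, SE 0.20), which hepatocytes also make, with Bicc1, Elf3 and Ddr1. Krt19 (0.15), Epcam (0.27) and Sox9 (0.31), which define bile duct cells, were not called. That count was 3 without DKO replicate 1 or WT replicate 1. The calls of Elf3 (limma adjusted p = 0.0191) and Ddr1 (0.0153) were among those lost without DKO replicate 1, at adjusted p = 0.0634 and 0.0563, and without WT replicate 1, at 0.0813 and 0.06. Elf3 was also lost without DKO replicate 3 and WT replicate 3 (adjusted p = 0.0547 and 0.0691). Calls covered 36.8% of the envelope, annexin and S100 genes, 47.8% of the fetal liver and tumour markers and 23.8% of the cholangiocyte markers. Over all genes the share was 9.62%. The fit to all 15 arrays called 2, 1 and 0 genes of these 3 lists.

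The mean level of the 5 hepatocyte markers was 12.25, 12.27 and 12.22 in the DKO and 12.25, 12.40 and 12.29 in WT. Genes of bile acid synthesis fell in part. Of 19 genes of bile acid synthesis 9 fell and none rose, with a median difference of -0.43. Cyp8b1, the sterol 12α-hydroxylase that makes cholic acid, was 9.22, 9.94 and 9.16 against 10.90, 11.06 and 11.31, 3.14-fold lower (difference -1.65, SE 0.21, limma adjusted p = 0.00216). Klb, the FGF15 co-receptor, fell by 1.20 (SE 0.13) and Akr1d1, a steroid reductase, fell by 0.64 (SE 0.09). Cyp7a1, the rate-limiting enzyme of the pathway, was 9.41, 8.66 and 9.60 against 8.57, 9.67 and 10.43, groups that overlap, and was not called (limma adjusted p = 0.713). The count was 5 without DKO replicate 1, WT replicate 2 or WT replicate 3. Of 21 transporters 9 fell and 2 rose. Uptake carriers of the sinusoidal face fell: Slco1a4, Slco1a1 (-1.91, SE 0.15), Slco1b2 (-0.85, SE 0.08) and Slc10a1, the sodium taurocholate carrier (-0.68, SE 0.10), the last of which was not called in the fit to all 15 arrays (adjusted p = 0.0755), nor was Slco1a1 (0.408). Of the canalicular pumps Abcb11, the bile salt export pump, fell as well (-0.68, SE 0.12), while the efflux pumps Abcb1b and Abcb1a rose (3.34 and 1.05), the latter without a call in that fit (adjusted p = 0.173). The transporter count was 7 without WT replicate 2. With all 15 arrays fitted, limma called 5 genes of each list.

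Drug-metabolising P450 genes split, with 11 of 25 lower and 2 higher. Cyp2c37 was 7.39, 7.42 and 7.77 against 9.91, 9.79 and 10.17 (difference -2.43, SE 0.14, limma adjusted p = 8.84e-05), Cyp2c54 fell by 1.97 (SE 0.13) and Cyp2c50 fell by 1.40 (SE 0.12). The rises were of Cyp2c39 and Cyp2b10 (1.08, SE 0.23, limma adjusted p = 0.0208). The latter call was lost without DKO replicate 1, DKO replicate 3, WT replicate 2 or WT replicate 3 (adjusted p = 0.0742, 0.0543, 0.0635 and 0.0564). Members of the Cyp2c family are close in sequence, so probes may read more than one of them, and the opposite signs of Cyp2c39 and Cyp2c37 are those of probe sets. Among 29 conjugating enzymes 12 fell and 3 rose. The falls included the carboxylesterases Ces2a (-1.57, SE 0.15), Ces1e (-1.44, SE 0.12) and Ces1d (-1.30, SE 0.11). Fitting all 15 arrays called 8 of the P450 and 9 of the conjugating genes.

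Of 22 genes with higher levels in male than in female liver 14 fell and none rose, and the median difference was -0.83. Hsd3b5, Serpina12 and Elovl3 led the list, followed by Slco1a1 and by Mup21, a major urinary protein, which was 7.17, 8.50 and 7.74 against 9.61, 9.50 and 9.96 (difference -1.88, SE 0.29). Cyp4a12a (0.25) was not called. Of 18 female-biased genes 5 rose, among them Slc22a27, an organic anion transporter (2.30, SE 0.32), and Ntrk2 (1.23, SE 0.18), while Cux2 (-0.19) and Sult3a1 (-0.19) were not called. The male list's count was 7 without DKO replicate 1, 9 without DKO replicate 3, and 7, 9 and 8 without WT replicates 1, 2 and 3. The female list's count was 3 without DKO replicate 2, WT replicate 1 or WT replicate 3. Neither list had a call in the fit to all 15 arrays. The mean level of the male list was 8.59, 8.86 and 8.27 in the DKO, 9.59, 9.39 and 9.84 in WT and 8.90, 9.0 and 8.61 in the Jnk2 KO, so all Jnk2 KO arrays lay below all WT arrays here. In the growth hormone and IGF axis, 5 of 20 genes fell and 1 rose: Igfals, the acid-labile subunit, fell by 1.15 (SE 0.16) and Ghr, the growth hormone receptor, fell by 0.70 (SE 0.10), while Igf1 (-0.01) was not called. Against 9.62% of all genes, 27.8% of the female-biased list and 30% of the IGF list were called. The IGF list's count was 3 without DKO replicate 1 or WT replicate 2, and 2 in the fit to all 15 arrays.

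**Figure D4:**
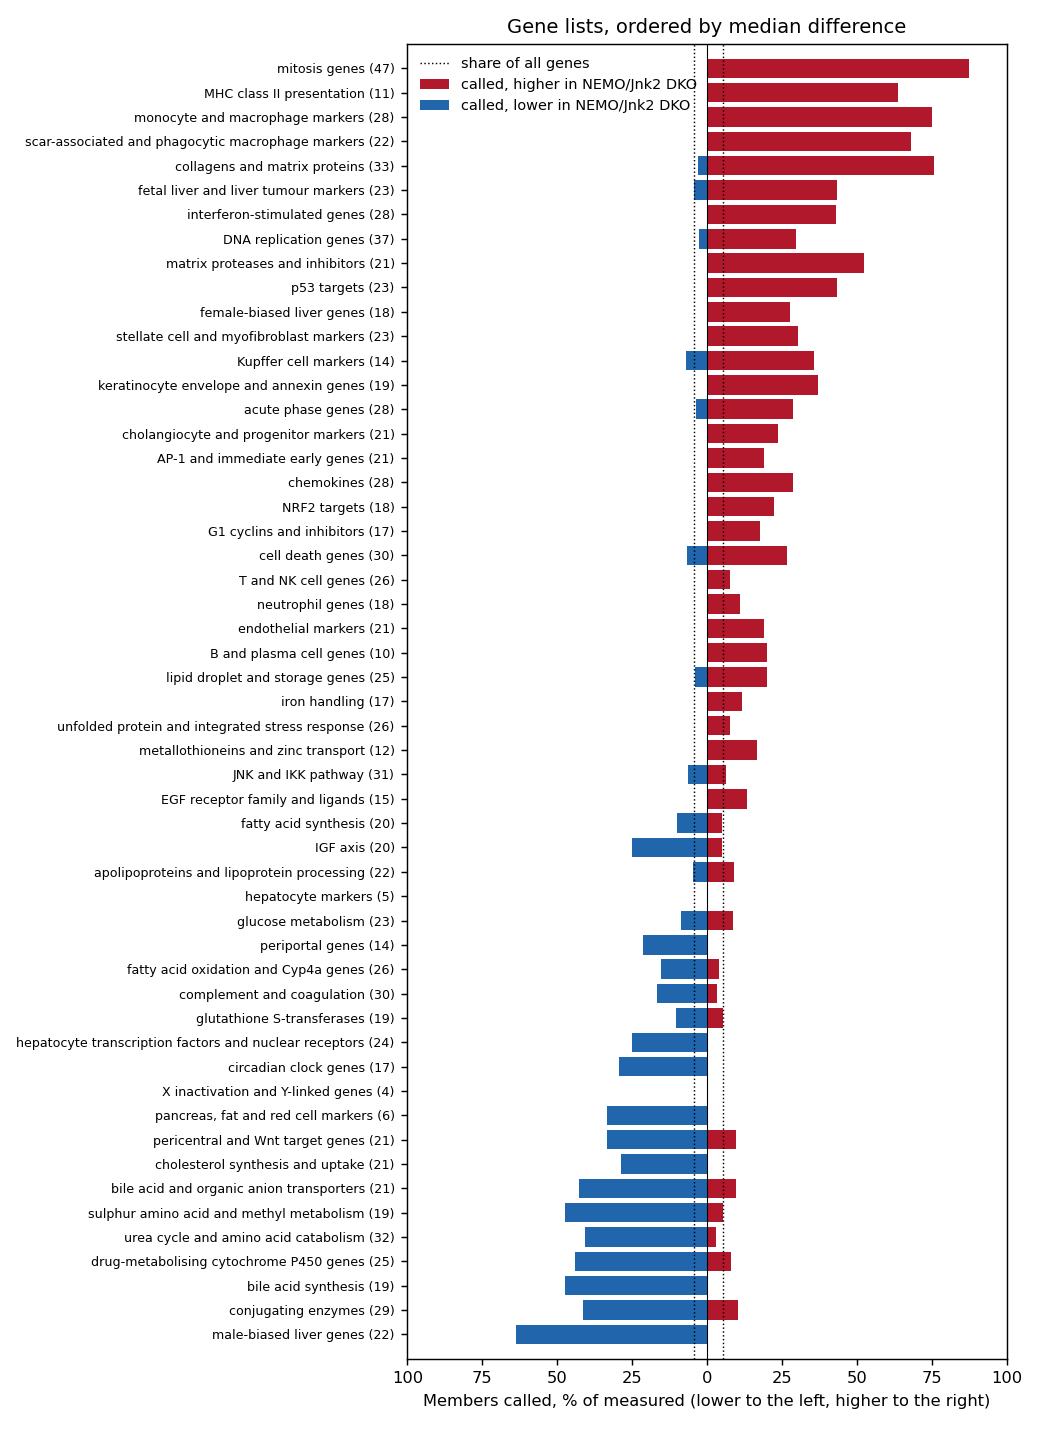
Share of the measured members of each gene list (number in parentheses) called higher (red, to the right) or lower (blue, to the left) in the DKO, in percent, with lists ordered by median difference; dotted lines mark the shares of all genes, 5.37% higher and 4.25% lower. Mitosis, macrophage and matrix lists reach furthest to the right and male-biased genes furthest to the left.

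Genes of amino acid metabolism fell in part. Of 32 genes of the urea cycle and amino acid catabolism 13 fell and 1, Acmsd, rose. Etnppl, a phosphoethanolamine lyase, fell by 1.36 (SE 0.18), Afmid, kynurenine formamidase, fell by 1.18 (SE 0.18), and Agxt, which detoxifies glyoxylate, fell by 0.94 (SE 0.13), while Cps1 (-0.15) and Arg1 (-0.22) were not called. Of 19 genes of sulphur amino acid and methyl metabolism 9 fell and 1 rose. Csad, which makes hypotaurine, was 8.86, 8.29 and 7.98 against 10.03, 10.26 and 10.18 (difference -1.78, SE 0.20, limma adjusted p = 0.00141), and 7.75, 8.63 and 8.49 in the Jnk2 KO. The urea list's count of 14 was 9 without DKO replicate 1, DKO replicate 3 or WT replicate 1, 6 without WT replicate 2 and 7 without WT replicate 3. The sulphur list's count of 10 was 5 without DKO replicate 1, DKO replicate 3 or WT replicate 3, 6 without WT replicate 1 and 4 without WT replicate 2. With all 15 arrays fitted, limma called 5 and 4 of them.

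Of 21 genes of cholesterol synthesis and uptake 6 fell, led by Tm7sf2, a sterol reductase (-0.87, SE 0.09). Of 20 genes of fatty acid synthesis 2 fell and 1 rose (15%, against 9.62% of all genes). Of 25 lipid droplet genes 5 rose, led by Cd36 (2.22, SE 0.09), and 1 fell, Dgat2, which makes triglyceride (-0.83, SE 0.13). The cholesterol count was 3 without DKO replicate 1, DKO replicate 2 or WT replicate 3 and 2 without WT replicate 2. The fatty acid synthesis count was 0 without DKO replicate 1 and 1 without any one WT replicate, and the lipid droplet count was 2 without WT replicate 2 or 3. Among 26 genes of fatty acid oxidation 1 rose, Acot2 (1.20, SE 0.16), and 4 fell, led by the coactivator Ppargc1a (-0.90, SE 0.11). That count was 2 without DKO replicate 1, DKO replicate 2, WT replicate 1 or WT replicate 2. Apoa4, an apolipoprotein, rose by 1.70 (SE 0.31, limma adjusted p = 0.0111), a call lost without DKO replicate 1 (adjusted p = 0.0562). Calls covered 28.6% of the cholesterol, 24% of the lipid droplet and 19.2% of the fatty acid oxidation genes, against 9.62% of all genes. Fitting all 15 arrays called 2 cholesterol genes, 0 of fatty acid synthesis, 2 of lipid droplets and 0 of fatty acid oxidation.

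Clock and zonation genes were lower in part. Among 17 circadian genes 5 fell and none rose. Tef, an output factor of the clock, was the steadiest, at 5.76, 5.75 and 5.77 against 6.78, 6.66 and 6.87 (difference -1.01, SE 0.09), and stood at 6.01, 5.81 and 5.80 in the Jnk2 KO. Nr1d2 fell by 1.28 (SE 0.21) and Dbp fell by 0.70 (SE 0.12), while Arntl (0.03) and Per1 (0.01) were not called. The labels give no time of day for the tissue, and its part in these values was not tested. The clock count was 3 without DKO replicate 1, DKO replicate 3, WT replicate 1 or WT replicate 2. Of 21 pericentral genes 7 fell and 2 rose. Slc1a2, a glutamate carrier, fell by 1.61 (SE 0.27) and Cyp1a2 fell by 0.78 (SE 0.08), while Rhbg, an ammonium carrier, rose by 0.83 (SE 0.11) and Glul, glutamine synthetase, was not called (-0.14). Of 24 hepatocyte transcription factors and nuclear receptors 6 fell, led in p by Thrb, the thyroid hormone receptor (-0.62, SE 0.09; adjusted p = 0.134 in the fit to all 15 arrays), and Hnf4a (0.05) was not called. That last count was 1 without DKO replicate 1, DKO replicate 2 or WT replicate 2, 2 without WT replicate 1 or 3, and 3 without DKO replicate 3. Calls covered 29.4% of the clock genes, 42.9% of the pericentral genes and 25% of the transcription factors, against 9.62% of all genes. With all 15 arrays fitted, limma called 0 clock genes, 4 pericentral genes and 1 transcription factor.

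Among 26 genes of the unfolded protein and integrated stress responses 2 rose (7.69%, against 9.62% of all genes). They were Atf3 and Ddit3 (0.46, SE 0.10, limma adjusted p = 0.021), while the chaperones Hspa5 (-0.05) and Hsp90b1 (-0.01) were not called. The call of Ddit3 was lost without DKO replicate 1, WT replicate 1, WT replicate 2 or WT replicate 3 (adjusted p = 0.0821, 0.0514, 0.0612 and 0.0691), and the count was 1 without WT replicate 2 or 3. Of 18 NRF2 targets 4 rose, among them Hmox1, haem oxygenase (1.30, SE 0.15), and Srxn1 (0.72, SE 0.08), while Nqo1 (0.37) and Gclc (0.06) were not called. The NRF2 list's share called was 22.2%, and its count was 2 without DKO replicate 2 or WT replicate 1. Fitting all 15 arrays called none of either list.

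Of 30 complement and coagulation genes 5 fell, led in p by F7, coagulation factor VII (-0.75, SE 0.10), and 1 rose. Of 23 genes of glucose metabolism 2 fell, among them G6pc, the last enzyme of glucose release (-0.90, SE 0.11), and 2 rose, among them Pkm, a pyruvate kinase low in adult hepatocytes (0.89, SE 0.12). Of 22 apolipoprotein and lipoprotein genes 2 rose, Apoa4 and Lpl, lipoprotein lipase (1.95, SE 0.17), and 1 fell, Sort1, sortilin (-0.89, SE 0.09). Of 17 iron genes 2 rose, and Hamp, hepcidin (-0.05), was not called. Of 19 glutathione S-transferases 1 rose and 2 fell, of 14 periportal genes 3 fell, and of 15 genes of the EGF receptor family and its ligands 2 rose, with Egfr (-0.11) not called. Against 9.62% of all genes, the shares called were 11.8% for iron, 13.3% for the EGF family, 13.6% for lipoproteins and 15.8% for the transferases. They were 17.4% for glucose, 20% for complement and coagulation and 21.4% for periportal genes. Among 6 markers of pancreas, fat and red cells 2 fell, Alas2 of erythroid cells (-0.72, SE 0.10) and Cela1 (-0.63, SE 0.10), and Adipoq of fat (-0.23) was not called. Without DKO replicate 1 the counts were 3 for complement, 1 for glutathione S-transferases and 1 for the EGF family. Without DKO replicate 2 the EGF family had 1, and without DKO replicate 3 the transferases and the periportal genes had 1 each. Without WT replicate 1 the counts were 3 for complement, 1 for iron, 1 for periportal and 0 for the EGF family. Without WT replicate 2 they were 1 for iron, 0 for the transferases, 1 for periportal and 0 for the EGF family, and without WT replicate 3 they were 2 for glucose, 1 for the transferases, 1 for periportal and 0 for the EGF family. In the fit to all 15 arrays Alas2 (adjusted p = 0.394), Cela1 (0.0744) and G6pc (0.0614) were not called. That fit called 2 glutathione S-transferases, 2 apolipoprotein and lipoprotein genes, 1 gene each of the complement, glucose and periportal lists, and none of the iron, EGF family or pancreas, fat and red cell lists.

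The DKO livers were also set against the Jnk2 KO livers, which share the Jnk2 deletion and keep hepatocyte NEMO by label, in a fit that included WT. As labelled, limma called 0 genes (0%), with 1845 at an unadjusted p under 0.05. Without the array labelled Jnk2 KO replicate 3, 998 genes (5.01%) were called, 663 higher and 335 lower in the DKO. This comparison and that with WT share the DKO arrays, so their values are given side by side and no overlap is read from them. Without that array, 34 of the 47 mitosis genes, 20 of the 33 matrix genes, 16 of the 28 macrophage markers and 7 of the 11 MHC class II genes were higher in the DKO than in the Jnk2 KO. The array left out had the highest Jnk2 KO mean of each list. It read 4.75 for mitosis, 7.37 for matrix, 7.07 for macrophage and 6.91 for class II genes. Replicates 1 and 2 read 4.15 and 3.72, 6.17 and 5.94, 6.20 and 6.03, and 5.55 and 5.74. These counts therefore rest on leaving it out and cannot test the lists. Col1a1 differed from the Jnk2 KO by 2.29 (SE 0.18) and from WT by 1.77, and Gpnmb by 2.79 (SE 0.17) and by 2.72. Cd163 differed from the Jnk2 KO by -2.78 (SE 0.24) without that array and by -1.68 (SE 0.73, limma adjusted p = 0.526) as labelled. Ly6d, Ikbkg, Gpnmb and Cd163 were among the genes that set Jnk2 KO replicate 3 apart, and the matrix genes were high on it. A fit without it cannot test these genes, Col1a1 included. Without it Ly6d and Ikbkg differed by 4.31 (SE 0.58) and -0.74 (SE 0.12). As labelled they differed by 2.78 (SE 1.10) and -0.45 (SE 0.21) and were not called (limma adjusted p = 0.507 and 0.557).

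Between DKO and Jnk2 KO without replicate 3, where 5.01% of all genes were called, 1 of the acute phase genes was higher and 5 were lower, among them Steap4 (-0.77, SE 0.15) and Saa3 (-0.85, SE 0.17). None of the metallothionein and clock genes was higher, and 1 and 0 of them were lower. Of the male-biased genes 5 of 22 were lower in the DKO than in the Jnk2 KO, against 14 of 22 relative to WT, and of the bile acid synthesis genes 2 of 19, against 9 of 19. These counts come from fits with different numbers of control arrays, and the difference between the counts was not tested. As labelled no gene was called, so the counts against the Jnk2 KO rest on leaving out replicate 3.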

How the data were processed

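RNA from whole liver was hybridised to Affymetrix whole-transcript arrays, 1 array per mouse, from 100 ng of total RNA with an integrity number above 8. Per the submitters' processing notes the authors normalised with RMA, whose version is not given in the sources used here. The deposited values are RMA levels taken as log2: the base is inferred from their range. The deposited table holds 35556 probe sets; 21789 carried 1 gene symbol in the platform annotation, 1621 several and 12146 none listed. Where a gene had several probe sets (999 genes), the one with the highest mean was kept, leaving 19938 genes; 21698 of the named probe sets matched a RefSeq gene ID, from which positions come (GRCm38.p6).

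Differences were fitted with limma 3.58.1 in R 4.3.3 (lmFit, eBayes; 4 residual and 4.5 prior degrees of freedom), Benjamini-Hochberg adjusted over all genes and called under 0.05. Figures were drawn with matplotlib under Python. Genes were named by rule: the targeted genes, the 15 largest called rises and falls with non-overlapping arrays (provisional models, small RNAs, immune receptor segments and olfactory genes left out), and up to 6 called members of each of 53 gene lists; defining members are given as values whether or not they passed. Of 1193 list symbols 1098 were measured. The comparison, its lists and its rules were chosen with earlier results of these data known. Alternatives are in the closing section.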

Additional observations from a re-analysis of the deposited data

Results flagged for a closer look

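Probe sets that carry no gene symbol or several were left out of the gene comparison and tested apart. Of 13767 such probe sets, 57 were called between DKO and WT (limma, adjusted over these probe sets), 48 higher and 9 lower. They are listed because this signal lies outside the gene-level measurement. Groups of 3 arrays were not tested for single outlying arrays.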

How the results depend on the processing

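The count of 1919 genes between DKO and WT became 525 with the spread from all 15 arrays and 1106 with a minimal change of 1.5-fold, and ran from 989 to 1481 over the 6 fits that left out 1 array. The other alternatives gave 2123 (intensity trend and robust prior), 1912 (array weights), 2023 (quantile normalisation), 1994 (centring on the median), 2074 (genes under log2 3.69 left out), 1925 (mean of probe sets), 1765 (chromosome 11 left out) and 1940 (11 arrays, chosen after seeing the data). No called gene changed sign in any of these fits, but for most of them this was fixed in advance. The called genes had arrays that did not overlap, so leaving out or weighting arrays cannot turn a sign. A changed spread, threshold or gene set leaves the difference as it was. Only quantile normalisation, centring and the mean of probe sets could have turned one. The replicate number as a block gave 1829, of which 1624 were among the 1919. Same-numbered arrays correlated by 0.07, 0.02 and 0.04 after removal of group means. The labels do not say whether the number pairs the mice. The block removed the call of 13 of the 257 genes picked by rule. Between DKO and Jnk2 KO, 0 genes were called as labelled, 998 without the array labelled Jnk2 KO replicate 3, 12 with the replicate block and 0 to 2 in the 5 fits that left out a DKO array or Jnk2 KO replicate 1 or 2 (2 without Jnk2 KO replicate 1). The cause of these movements was not tested. With 3 mice per group the smallest difference called was 0.31, the median SE was 0.11, and dim genes, Mapk9 in the DKO among them, lie near background, where RMA levels understate a fold.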
